A study of Mus musculus with 21 samples.

Results

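The genes described here were 10 immediate early genes of the mouse, Fos, Fosb, Fosl2, Jun, Junb, Arc, Egr1, Egr2, Npas4 and Nr4a1. The choice was by name, as genes induced by cell activity, and not by a measured value. Earlier results of these data were known when it was made. They were 10 of the 55487 genes in the deposited count table, and 10 of 10 had enough counts to be among the 18146 genes tested. Poly-A RNA was sequenced from the hippocampus of male, wild type C57BL/6 mice of 10 weeks, with 1 library per mouse. In the maternal separation (MS) group, a model of early life stress, whole nests had been kept apart from the dam for 4 hours daily from postnatal day 10 to 17, alternating between the light and the dark phase, and most nesting material had been taken from the home cage, whereas the standard rearing (SR) group was the control. After weaning, both groups lived with same-sex litter mates, and all mice were decapitated without anaesthesia, with no task or stimulus beforehand named in the sources used here.

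The animal numbers in the labels fell into 7 sets of 3 consecutive numbers, each of 1 condition, named here A to C in MS and D to G in SR. A mouse is named by its set and its place in it, so that A1 is the first mouse of set A. The labels name no nest, and whether a set was a nest or a cage is not given in the sources used here. In the study, litters were balanced to 3 males and 3 females, and litter mates of 1 sex were later housed in 3s. A set may therefore be a litter, which the labels cannot settle. Sets C and G carried the high animal numbers, and the other sets the low ones. The MS library A2 lay apart on the first component of a principal component analysis (27.1, against -12.2 to 11.9 for the other libraries) and was left out, which leaves 8 MS and 12 SR mice, with 2 mice in set A. Total counts of these 20 libraries lay between 17276810 and 26450808, and 0 pairs of libraries were identical. Levels are given in CPM, which scales each count to the TMM-adjusted total of its library. Of the defining markers, 10 of 10 for dentate gyrus granule cells and 10 of 10 for pyramidal cells of the CA fields were detected in every library. In bulk RNA, fewer cells of a type and less RNA per cell cannot be told apart.

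Immediate early genes are transcribed within minutes of a stimulus without new protein synthesis, and in hippocampal neurons their mRNAs are widely used as a readout of recent neuronal activity. Calcium and cAMP signals reach their promoters through the transcription factors CREB and SRF and through distant enhancers, and most of the mRNAs decay quickly. Fos, Fosb and Fosl2 encode partners of the Jun proteins in the AP-1 transcription factor, and Jun and Junb encode those partners. Egr1 and Egr2 encode zinc finger transcription factors, Npas4 a transcription factor that responds to calcium influx in neurons, and Nr4a1 an orphan nuclear receptor. Arc encodes no transcription factor but a cytoskeletal protein of dendrites that takes part in the removal of AMPA receptors from synapses.

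All 10 are annotated as protein-coding genes in the GRCm38 build. Fos lies at chr12:85473890-85477273, Fosb at chr7:19302696-19310051, Fosl2 at chr5:32135801-32157842, Jun at chr4:95049034-95052222 and Junb at chr8:84974484-84978718. Arc lies at chr15:74669083-74672570, Egr2 at chr10:67535475-67542188, Npas4 at chr19:4984355-4990316 and Nr4a1 at chr15:101254269-101274795. Jun shares 689 bases with the antisense gene Junos, and Junb shares 351 bases with Prdx2 on the opposite strand. The strand setting of the counting is not given in the sources used here, so reads of these shared bases cannot be assigned to 1 gene with certainty. The r of log2 CPM with the overlapping gene over the 20 mice was -0.208 for Jun with Junos and -0.273 for Junb with Prdx2, as a description.

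The promoter windows of 5 members are shown as examples, picked after the members' levels had been seen. Fos, Npas4 and Nr4a1 moved together over the mice, and Junb differed between sets. Jun went the other way, largely through mice A1 and E2. No relation of the levels to these windows was tested. Each is the 250 bases before the annotated start in RefSeq (GRCm38.p6), read 5′ to 3′ on the gene's strand, at chr12:85473640-85473889 for Fos (plus strand), chr19:4989972-4990221 for Npas4 (minus strand), chr15:101266596-101266845 for Nr4a1 (plus strand), chr8:84978749-84978998 for Junb (minus strand) and chr4:95052223-95052472 for Jun (minus strand). Capitals mark TGACG or its reverse complement CGTCA, the half-site bound by CREB and ATF proteins.
Fos: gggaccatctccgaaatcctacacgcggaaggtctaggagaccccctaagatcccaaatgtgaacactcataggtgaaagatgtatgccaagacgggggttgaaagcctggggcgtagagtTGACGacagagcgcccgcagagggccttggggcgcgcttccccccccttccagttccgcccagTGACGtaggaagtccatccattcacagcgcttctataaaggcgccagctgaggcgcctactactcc
Npas4: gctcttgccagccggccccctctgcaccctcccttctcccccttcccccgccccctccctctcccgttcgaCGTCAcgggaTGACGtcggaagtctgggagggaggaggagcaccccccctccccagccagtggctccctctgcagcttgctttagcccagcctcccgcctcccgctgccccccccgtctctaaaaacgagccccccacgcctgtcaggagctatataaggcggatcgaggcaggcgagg
Nr4a1: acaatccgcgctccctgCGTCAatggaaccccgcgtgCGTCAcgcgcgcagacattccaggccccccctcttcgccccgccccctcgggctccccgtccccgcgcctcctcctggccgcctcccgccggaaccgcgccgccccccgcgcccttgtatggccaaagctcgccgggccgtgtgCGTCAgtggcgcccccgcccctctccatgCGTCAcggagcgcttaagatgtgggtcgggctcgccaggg
Junb: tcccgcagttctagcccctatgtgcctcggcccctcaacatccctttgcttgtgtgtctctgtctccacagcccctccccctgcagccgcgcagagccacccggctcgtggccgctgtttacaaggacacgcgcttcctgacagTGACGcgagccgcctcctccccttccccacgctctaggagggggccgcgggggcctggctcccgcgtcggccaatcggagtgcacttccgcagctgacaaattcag
Jun: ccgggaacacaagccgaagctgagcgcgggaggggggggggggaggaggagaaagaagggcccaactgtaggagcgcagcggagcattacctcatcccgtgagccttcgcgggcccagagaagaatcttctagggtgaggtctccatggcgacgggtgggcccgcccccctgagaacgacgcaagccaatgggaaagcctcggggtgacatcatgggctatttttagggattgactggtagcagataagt

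RefSeq windows matched 8 of the 10 members, all but Arc and Egr1. These 8 had 12 windows, since Egr2 has several annotated starts, whose windows can overlap. The half-site was found on either strand in 8 of the 12 windows, those of 6 genes (Fos, Fosb, Junb, Egr2, Npas4 and Nr4a1), against 17.7% of all 32817 promoter windows, and was not found in the windows of Fosl2 and Jun. Nr4a1 held 4 half-sites, Fos and Npas4 held 2 each, and Fosb and Junb 1 each. The full palindrome TGACGTCA, which holds the half-site on both strands, was found in 0 of the 12 windows and in 1.55% of all. The CArG box, to which SRF binds, was found in 4 of the 12 windows, against 1.47% of all. Each of the 4 was a window of Egr2, so 1 of the 8 genes had a match. TATAAA was found in 1 of the 12 windows and in 12.4% of all. These matches describe letters in the windows and say nothing of binding. Sites beyond the 250 bases, and those of Arc and Egr1, were not searched.

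Per kilobase of exon, the level over the 20 mice was highest for Arc (58.8 CPM per kb), followed by Jun (36.5), Egr1 (29.2), Junb (25.0) and Nr4a1 (22.5). Levels were lower for Fosl2 (5.29 CPM per kb), Fos (4.41), Npas4 (3.44), Fosb (1.03) and Egr2 (0.643). Egr2 rested on 15 to 206 counts per library, Fos on 86 to 638 and Junb on 783 to 1783, so counting error is largest for Egr2.

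First, the members of AP-1 were compared between rearing conditions. Fos ranged from 5.89 over a median of 9.54 to 29.0 CPM in MS and from 4.04 over 8.65 to 23.9 CPM in SR. Both ranges overlapped almost entirely, and in each the highest mouse stood clear of the next. The log2 fold change of Fos, MS over SR, was 0.26 ± 0.354 (SE, edgeR adjusted p = 0.825), with a 95% confidence interval from 0.718-fold to 2.01-fold. Fosb ranged from 4.60 over 6.22 to 11.7 CPM in MS and from 4.39 over 6.30 to 9.46 CPM in SR, with a log2 fold change of 0.10 ± 0.157 (edgeR adjusted p = 0.857). Its medians were nearly equal. Fosl2, which encodes Fra-2, ranged from 37.0 over 51.2 to 58.8 CPM in MS and from 34.7 over 53.2 to 60.9 CPM in SR, with the narrowest confidence interval of the members (log2 from -0.22 to 0.14). Here no mouse stood apart at the upper end. Jun ranged from 76.2 over 123 to 147 CPM in MS and from 76.5 over 117 to 141 CPM in SR, with a log2 fold change of 0.07 ± 0.111 (edgeR adjusted p = 0.857). For Jun the mouse that stood low, not high, was A1 in MS and E2 in SR. Junb ranged from 49.1 over 57.8 to 79.9 CPM in MS and from 37.7 over 56.2 to 75.3 CPM in SR, with a log2 fold change of 0.04 ± 0.128 (edgeR adjusted p = 0.936).

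Second, the same comparison was made for the other members. Arc ranged from 148 over 167 to 362 CPM in MS and from 84.0 over 159 to 344 CPM in SR, with a log2 fold change of 0.13 ± 0.247 (edgeR adjusted p = 0.894). The lowest MS mouse lay well above the lowest SR mice, which were those of set G. Egr1 ranged from 88.9 over 110 to 273 CPM in MS and from 89.6 over 121 to 281 CPM in SR. Egr2 ranged from 1.14 over 1.42 to 9.36 CPM in MS and from 0.692 over 1.38 to 7.01 CPM in SR. The Egr2 level of the highest SR mouse was thus several times the median, as in MS, and its log2 fold change had the widest confidence interval of the members (-0.68 to 1.41). Npas4 ranged from 7.73 over 12.8 to 29.9 CPM in MS and from 8.02 over 11.9 to 30.4 CPM in SR, with a log2 fold change of -0.01 ± 0.260 (edgeR adjusted p = 0.995). Nr4a1 ranged from 57.0 over 72.6 to 152 CPM in MS and from 50.5 over 75.5 to 132 CPM in SR. For both genes the ranges of the conditions overlapped over most of their length.

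Of the 10 members, 0 passed the threshold between MS and SR, against 2 of 18146 genes tested (0.011%), and 0 had an unadjusted p under 0.05, against 2095 genes (11.5%). Both called genes were higher in MS, and DESeq2 called 0 of the 10 members, against 127 of the 14056 genes to which it gave an adjusted p (0.904%). MS and SR mice did not overlap in 0 of 10 members and in 0.011% of genes. Over all genes tested, the log2 fold change was above 0 in 9136 of 18146, with a median of 0.00084. Among the members it was above 0 in 7 of 10, with a median of 0.08. These directions rested on mouse A1: without it, the log2 fold change was -0.10 for Fos, -0.07 for Fosb, -0.04 for Junb, -0.08 for Arc, -0.36 for Egr2 and -0.09 for Nr4a1, which left Jun (0.14) as the only member above 0. Without E2, Egr1 (0.12) and Npas4 (0.15) were above 0 too. Each library is 1 mouse, and since the labels tie no mouse to a nest, these p-values measure the spread between single mice. Whole nests had been assigned to a condition, so mice of 1 nest are not independent units of treatment.

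**Figure D1:**
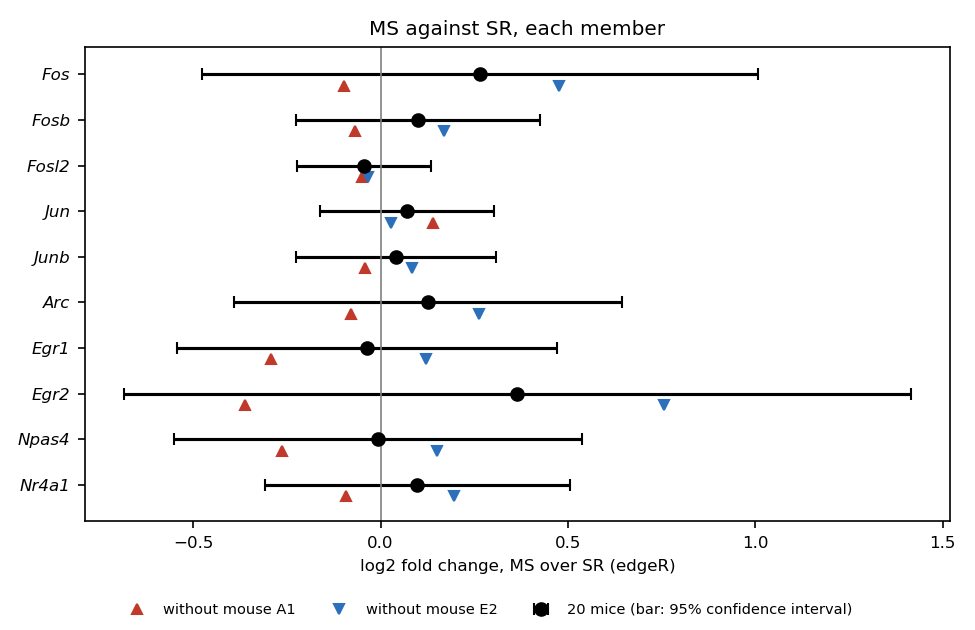
Log2 fold change of each member, MS over SR, from edgeR on 20 mice (black points, bars are 95% confidence intervals) and without the MS mouse A1 (red) or the SR mouse E2 (blue). All 10 intervals include 0, and leaving out A1 moved Fos from 0.26 to -0.10 and Egr2 from 0.37 to -0.36.

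The spread between single mice was then described. The MS mouse A1 and the SR mouse E2 were the highest of their condition in 8 of 10 members, against 7.56% of all genes tested, and the lowest of their condition in Jun. Both mice were singled out for their levels of the members, so this share is a description and no test. For Egr2, A1 had 9.36 CPM and E2 had 7.01 CPM, which was 6.58 and 5.10 times the median of their condition. For Fos the ratios were 3.04 in A1 and 2.76 in E2, and for Egr1 2.48 and 2.32. The ratio of both mice to their median was smaller in Npas4 (2.34 and 2.56), Arc (2.17 and 2.16), Nr4a1 (2.09 and 1.75), Fosb (1.88 and 1.50) and Junb (1.38 and 1.34). For Fosl2 the ratios were 0.995 and 1.05, so that neither mouse stood out, and for Jun they were 0.620 and 0.656. The 2 mice belong to different conditions and different sets.

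**Figure D2:**
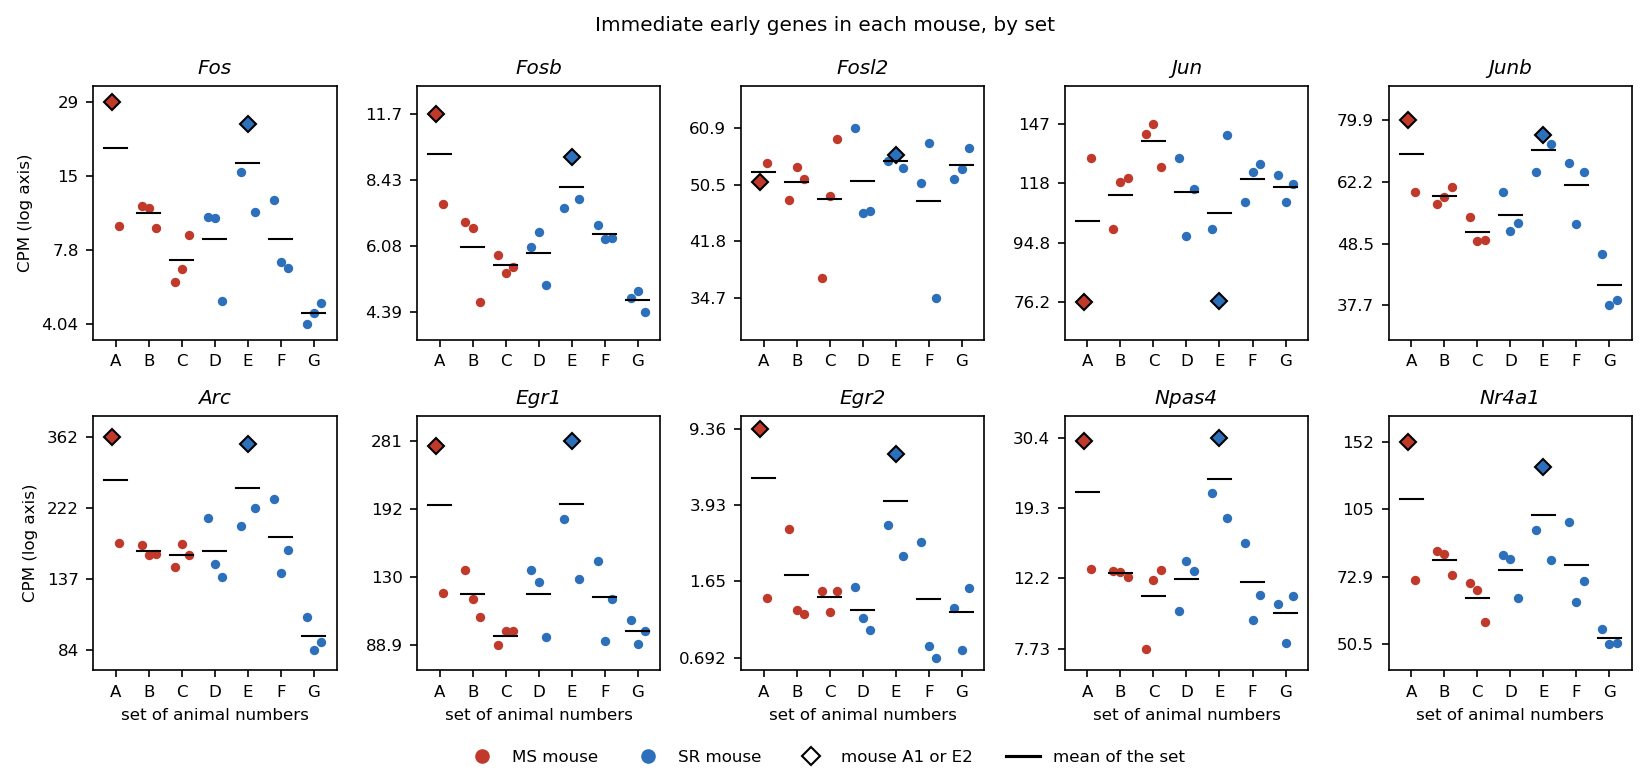
CPM of each member in each of 20 mice (1 point per mouse, log axis, own scale per gene), by set of animal numbers. Red points are MS and blue points SR mice, black lines are set means and diamonds are A1 and E2, which lie at the top in 8 of 10 members and at the bottom in Jun, while set G lies low in Fos, Fosb, Junb, Arc and Nr4a1.

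Within conditions, the SD of log2 CPM over mice was above the median of all genes tested (0.173) in 10 of 10 members. It was 0.970 for Egr2, 0.753 for Fos, 0.545 for Npas4 and 0.537 for Arc, which put them at percentiles 99.1, 97.9, 93.0 and 92.6 of all genes. Egr1 followed with 0.496, Nr4a1 with 0.416, Fosb with 0.356 and Junb with 0.293. The least spread members were Jun (0.263) and Fosl2 (0.209), at percentiles 66.5 and 57.9. Since low counts spread more, the dispersion fitted by edgeR was also set against its trend at the same level: the ratio was 17.0 for Arc and 16.0 for Egr1, 10.8 for Fos, and 1.76 for Fosl2 and 1.64 for Fosb, against a median of 0.596 over all genes. By this measure the abundant members Arc and Egr1 came first, and Nr4a1 (9.77), Egr2 (9.64) and Npas4 (7.05) were also above that median.

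Of the sum of squares within conditions, the share that lay between sets was 81.5% for Junb, 74.8% for Fosb and 71.9% for Arc, against a median of 30.4% over all genes. It was 67.2% for Fos, 65.8% for Npas4, 60.7% for Nr4a1, 58.8% for Egr1 and 48.0% for Egr2. Jun (29.9%) and Fosl2 (16.0%) lay at or under the median.

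**Figure D3:**
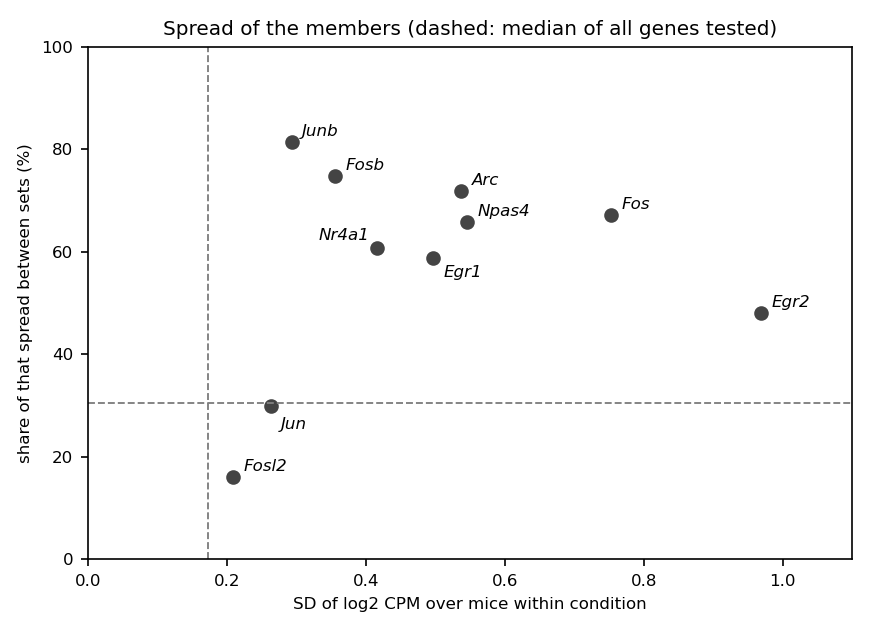
SD of log2 CPM over mice within conditions (x axis) and the percent of that spread lying between sets (y axis) for the 10 members, with dashed lines at the median of all genes tested (0.173 and 30.4%). Egr2 has the largest SD (0.970) and Junb the largest share between sets (81.5%), while Jun and Fosl2 lie near the medians.

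Next, sets were compared within conditions by a joint edgeR test of all set differences. Junb was the 1 of 10 members called (F = 13.9, p = 8.71e-06, adjusted p = 0.0316), against 6 of 18146 genes (0.0331%). Its set means were 69.8 ± 14.3 CPM in A (SD, n = 2), 58.8 ± 2.01 in B and 50.8 ± 2.77 in C (n = 3 each), and 54.4 ± 4.70 in D, 70.9 ± 5.37 in E, 61.4 ± 7.93 in F and 40.9 ± 4.77 in G (n = 3 each). The 3 mice of set G, at 46.4, 37.7 and 38.6 CPM, were the lowest of all 20, and the 3 mice of set E lay between 64.9 and 75.3 CPM. The overlapping Prdx2 had an unadjusted p of 0.638 in the same test. The call for Junb was lost without set G (edgeR adjusted p = 0.613), set E (0.171), set C (0.213) or set B (0.0568), without both A1 and E2 (0.0629), and with the summed neocortical markers as a term in the fit (0.0683). It was also lost in 11 of the 20 fits that left out 1 mouse, with an edgeR adjusted p of 0.246 without G3, 0.156 without G2 and 0.0983 without E2.

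With the unadjusted p, 8 of 10 members were under 0.05 in the set test (Fos, Fosb, Junb, Arc, Egr1, Egr2, Npas4 and Nr4a1), against 1650 genes (9.09%). Without A1 and E2 this count was 7, against 5.84% of genes. The 8 members moved together over the mice, so they are not 8 separate observations. The edgeR adjusted p over all genes was 0.142 for Fosb, 0.316 for Arc and Npas4, 0.322 for Fos, 0.436 for Egr1, 0.439 for Nr4a1 and 0.464 for Egr2, so these 7 did not pass. In DESeq2's likelihood ratio test of the same sets, the same 8 members passed, against 163 of 17080 genes (0.954%). The count of members called between sets thus depended on the tool.

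Set G was the low set: all of its mice lay under every mouse of D, E and F in 5 of 10 members (Fos, Fosb, Junb, Arc and Nr4a1), against 1.34% of genes. It was singled out for its low levels of the members, so this share is a description and no test. Arc, the synaptic effector, had a mean of 92.5 ± 10.9 CPM in G, against 166 ± 36.1 in D, 254 ± 79.1 in E and 182 ± 48.6 in F (SD, n = 3 each). Nr4a1 had 52.2 ± 2.44 CPM in G, against 102 ± 27.1 in E. In Egr1, by contrast, set G (96.2 ± 6.49 CPM) overlapped with D (119 ± 22.7) and F (116 ± 26.0). The summed neocortical markers of set G were 334 to 337 CPM, beside an SR median of 337. Its dentate gyrus markers summed to 804 to 979 CPM per mouse (SR median 789), and its glucocorticoid-induced genes to 490 to 527 CPM (SR median 587). The part of these sums in the low levels of set G was not tested.

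Since the high animal numbers hold only set C in MS and set G in SR, the comparison of MS with SR was also made within each range of numbers. Among the high numbers (n = 3 each), Arc was 161 ± 12.6 CPM in MS and 92.5 ± 10.9 in SR, and Junb 50.8 ± 2.77 in MS and 40.9 ± 4.77 in SR, with no overlap between the groups in either gene. Set C lay above set G without overlap in 6 of 10 members (Fos, Fosb, Jun, Junb, Arc and Nr4a1), against 5.62% of genes, and the sets overlapped in the other 4. All of the 6 but Jun moved together over the 20 mice, so they are not separate observations. Among the low numbers (5 MS and 9 SR mice), Arc was 206 ± 87.0 CPM in MS and 200.4 ± 64.4 in SR, and Junb 63.2 ± 9.44 and 62.3 ± 8.92. The MS to SR difference in Arc was thus 0.80 on the log2 scale among the high numbers and 0.02 among the low ones. The edgeR test of rearing condition by number range called 0 of 10 members (0% of genes), with 0 members at an unadjusted p under 0.05 (8.67% of genes), and gave an adjusted p of 0.618 for Arc and 0.656 for Junb. Within the high numbers, rearing condition and set cannot be told apart.

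Co-variation of the members over the 20 mice was measured for all 45 pairs as Pearson's r and Spearman's rho of log2 CPM, with p-values from 100000 permutations and Benjamini-Hochberg adjustment over the 45 pairs. The permutations shuffled the 20 mice freely, without regard to set or condition. For most members much of the spread lay between sets, so these p-values may be too small. The median r was 0.787, against -0.003 over all pairs of genes tested. In all, 8 members moved together, as 28 of 28 pairs among Fos, Fosb, Junb, Arc, Egr1, Egr2, Npas4 and Nr4a1 had an r between 0.651 and 0.934 and a permutation adjusted p of at most 0.00278 for r and 0.0176 for rho. These 8 were grouped after their values had been seen. The highest r was that of Fos with Nr4a1 (r = 0.934, rho = 0.949, both permutation p = 1e-05, the smallest that the permutations can give, adjusted p = 3.21e-05 and 7.5e-05), and it was 0.864 without A1 and E2. Arc with Nr4a1 had an r of 0.929 and Junb with Arc an r of 0.926. The lowest r among the 8 was that of Junb with Egr2 (r = 0.651, rho = 0.562, permutation p = 0.00204 and 0.0109), which fell to 0.427 without A1 and E2.

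The co-variation of the 8 was present within both conditions and within sets. Among their 28 pairs, r lay between 0.771 and 0.966 in MS alone, between 0.612 and 0.962 in SR alone, and between 0.416 and 0.935 for deviations from the set means. Without A1 and E2, r lay between 0.427 and 0.907 with a median of 0.708. Within the low animal numbers r lay between 0.725 and 0.964, whereas within the 6 mice of high numbers it ranged from -0.442 to 0.882.

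**Figure D4:**
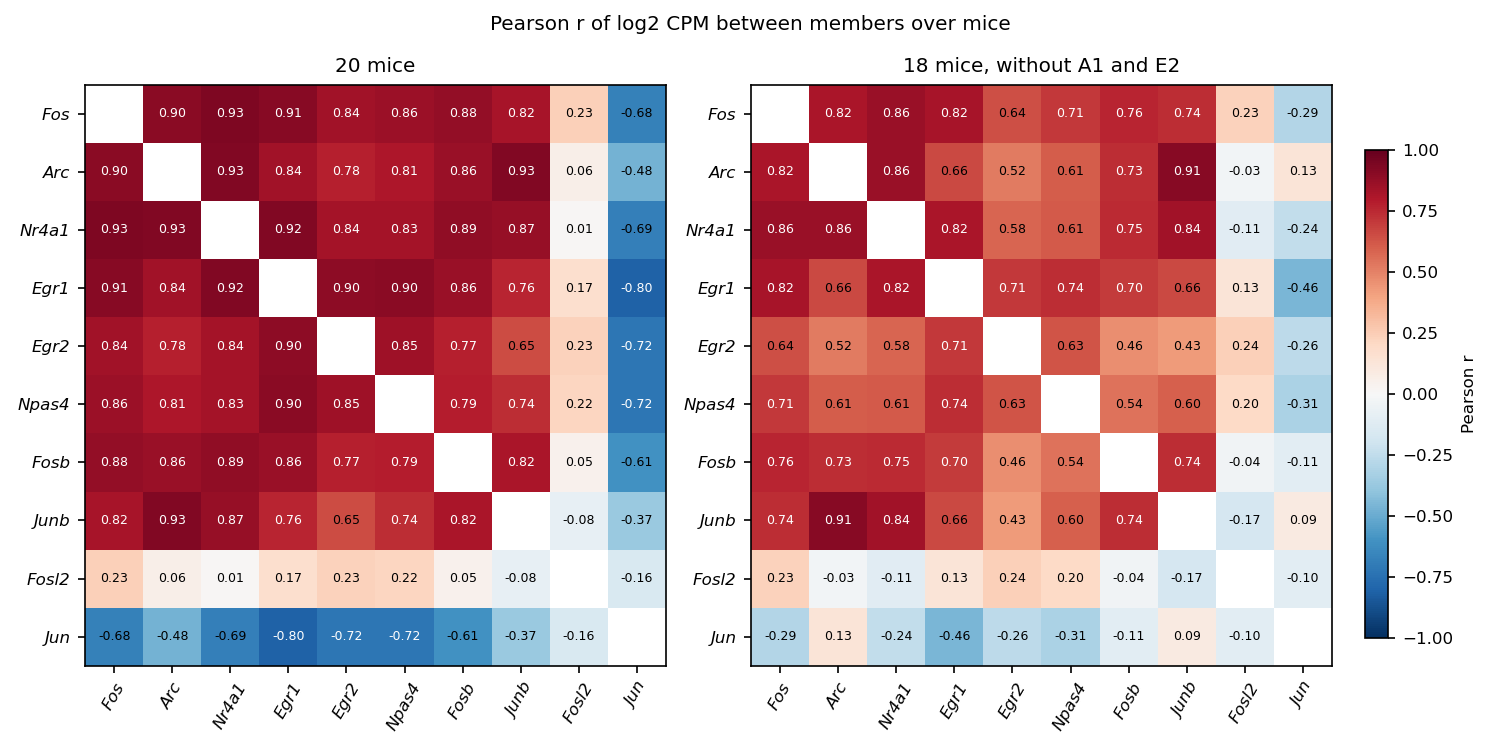
Pearson r of log2 CPM between each pair of members over 20 mice (left) and over 18 mice without A1 and E2 (right), red positive and blue negative. The 8 members in the upper left square stay positive in both panels, with medians of 0.855 and 0.708, while the negative values of Jun weaken and turn positive with Arc and Junb.

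Fosl2 and Jun did not join the 8. The r of Fosl2 with the 8 lay between -0.0812 and 0.235, with 0 of 8 pairs under an adjusted permutation p of 0.05. Jun had an r between -0.805 and -0.374 with the 8, with 7 of 8 pairs under 0.05 for r but 2 of 8 for rho. Jun with Egr1 had the most negative r (r = -0.805, rho = -0.499, permutation p = 0.00024 and 0.0269, adjusted p = 4e-04 and 0.0404), while the most negative rho was that of Jun with Npas4 (-0.529). Without A1 and E2 the r of Jun with the 8 lay between -0.457 and 0.129, so the relation rested largely on these mice, in which Jun was lowest. The gene most like Jun over the mice was Neurod1 (r = 0.951, rho = 0.962, and r = 0.920 without the 2 mice farthest from the median of Jun), which encodes a neuronal differentiation factor. Fosl2 was most like Mtmr4 (r = 0.845, rho = 0.794).

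Markers of cell types and regions moved with A1 and E2. The summed neocortical layer markers were 570 CPM in A1 and 554 in E2, the highest of the 20 mice, with a range of 306 to 460 in the other 18. In the same mice the dentate gyrus granule cell markers (616 and 590 CPM) and the CA field pyramidal cell markers (672 and 647 CPM) had their lowest sums, against up to 1014 and 1046 CPM in other mice. Not every gene was low: the dentate marker Pdzd2 was at 96.9 and 89.9 CPM (range 69.4 to 110), and the CA field marker Mpped1 at 190 and 187 (range 157 to 222). The r with the members' mean z-score was above 0 in 0 of 10 dentate and 1 of 10 CA field markers. Of the 10 neocortical markers, 6 were highest of their condition in both A1 and E2, among them Lamp5 (91.9 and 101 CPM), against 7.56% of genes tested. The list was not uniform: Cdh9 was at 19.5 CPM in A1, the lowest of the 20 mice, and 25.0 in E2, and Fezf2 was at 36.2 and 36.4 CPM, within a range of 28.1 to 44.1. None of the marker genes was at 0 in any library. The striatal markers were at 701 CPM in E2 but 305 CPM in A1, and their highest sum, 1037 CPM, was that of the MS mouse B1. In the mean z-score of the 10 members, B1 ranked 8 of the 20 mice. The part of the striatal sum in the members' levels was not tested.

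Over 30 relations of 10 members with 3 marker sums, Egr1 had an r of 0.895 with the neocortical sum (rho = 0.747, permutation p = 4e-05 and 0.00025, adjusted p for r = 0.000214), which was 0.691 without A1 and E2. Arc had 0.677 and Junb 0.531, and these were 0.285 and 0.188 without A1 and E2, so for them the relation rested on those mice. Jun ran the other way, with an r of -0.846 with the neocortical sum (rho = -0.577, permutation p = 5e-05 and 0.00891) and 0.794 with the dentate sum (rho = 0.690, permutation p = 4e-05 and 0.00118), the latter 0.760 without E2 and F3. Fos had an r of -0.780 with the dentate sum (rho = -0.797, permutation p = 4e-05 and 2e-05), and -0.750 without E2 and F3. Mouse A1, whose dentate sum was low, stayed in where E2 and F3 were left out. These values therefore do not show how far the relations of Jun and Fos with the dentate sum rested on A1 and E2. For the members' mean z-score, the r with the dentate sum was weaker without A1 and E2. After the neocortical sum was regressed out of each gene, r among the 8 members lay between 0.444 and 0.912 with a median of 0.701, and r of Jun with the 8 lay between -0.199 and 0.246. With the CA field sum, Jun had an r of 0.868 (rho = 0.641, permutation p = 4e-05 and 0.00315), Egr2 -0.847 (rho = -0.562, permutation p = 9e-05 and 0.0114), Egr1 -0.837 (rho = -0.543, permutation p = 0.00028 and 0.0144) and Fos -0.806 (rho = -0.675, permutation p = 5e-05 and 0.00146). Without A1 and E2 these were 0.622 for Jun, -0.530 for Egr2, -0.422 for Egr1 and -0.571 for Fos. The permutation p-values of these 30 relations also take the mice as independent of their sets. The part of the dentate and CA field sums in the members' co-variation was not tested.

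**Figure D5:**
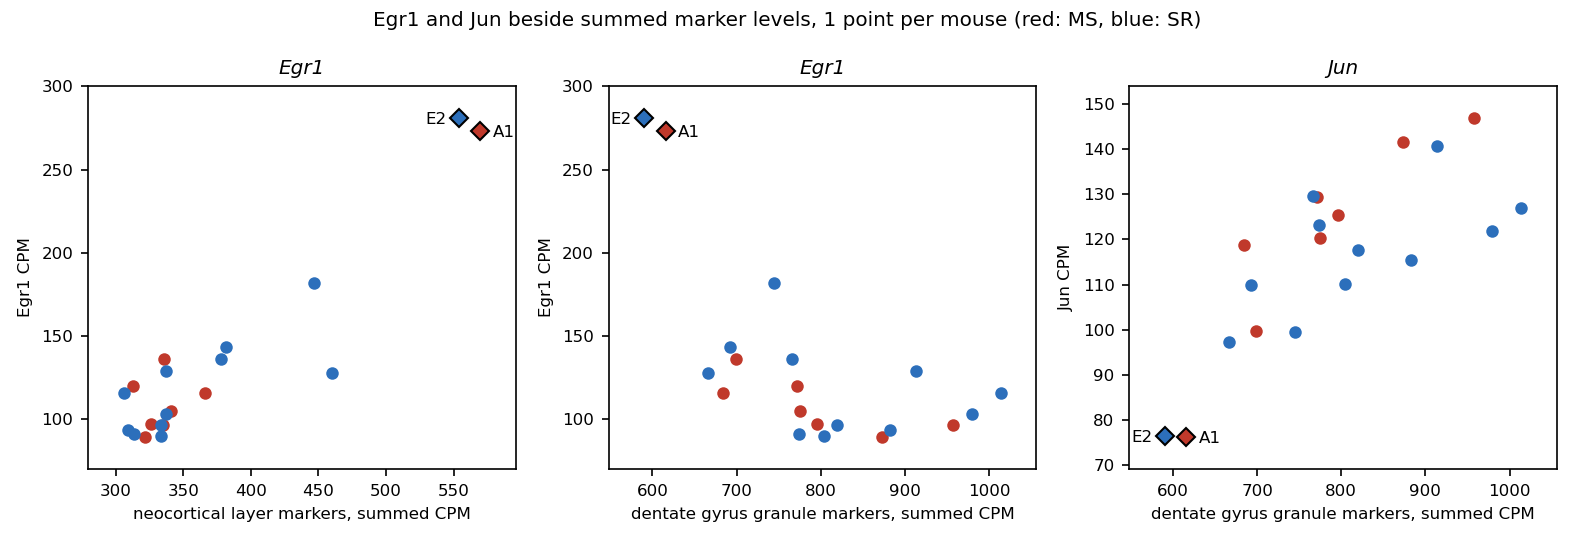
Egr1 CPM against the summed CPM of neocortical layer markers (left) and of dentate gyrus granule cell markers (middle), and Jun CPM against the dentate sum (right), 1 point per mouse with MS red, SR blue, and A1 and E2 as diamonds. A1 and E2 combine the highest Egr1 (273 and 281 CPM) and the lowest Jun (76.2 and 76.5 CPM) with the highest neocortical and lowest dentate sums.

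The genes closest to the members were sought over all genes tested by r with the mean z-score of the 10 members, as a description. Since a member is part of that score, each was set against the score of the other 9 and ranked with the genes that are no members. Fos (r = 0.947), Arc (0.932) and Nr4a1 (0.915) then each took rank 1 of 18137, Egr1 rank 3, Fosb 10, Npas4 12, Egr2 22 and Junb 36, whereas Fosl2 was at 7119 and Jun at 17588. The 8 closest genes outside the members were Midn (0.922), 1700016P03Rik (0.911), Usp28 (0.906), Igsf9b (0.906), Dusp1 (0.905), Dlk2 (0.904), Foxo3 (0.893) and Fcho1 (0.889). Of single members, Fos (r = 0.945) and Egr1 (0.939) were most like Igsf9b, Fosb was most like Dlk2 (0.892), Egr2 like Dusp14 (0.898) and Npas4 like Tacc1 (0.908). Junb was most like Arc (0.926), Arc like Nr4a1 (0.929) and Nr4a1 like Fos (0.934).

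Other rapid-response genes, a list of 35 named inducible genes of which 34 were tested, were compared in the same fits. Between MS and SR 0 of 34 were called, and the median log2 fold change was 0.08. Higher in MS were 25 of 34, against 9136 of the 18146 genes tested. A1 was the highest MS mouse in 19 of the 34, against 2751 of all genes tested, and the directions without A1 are not given here. In the set test 1 was called (Klf10, a zinc finger repressor, edgeR adjusted p = 0.00547), and 15 of 34 (44.1%) had an unadjusted p under 0.05. Their median r with the members' score was 0.509, highest for Dusp1 (0.905), a phosphatase of MAP kinases, and for the clock gene Per1 (0.867), and lowest for Ptgs2 (-0.632), which encodes cyclooxygenase 2, and Nr4a3 (-0.554), a paralogue of Nr4a1. Nr4a3 was 62.3 CPM in A1 and 62.7 in E2, within a range of 57.3 to 95.7, and its r with the score was -0.325 without these mice and -0.368 for deviations from set means. A1 and E2 were both the highest of their condition in 14 of the 34 (41.2%).

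Delayed activity-response genes, which follow the transcription factors, numbered 16, with 0 called between MS and SR, 0 called between sets, a median log2 fold change of 0.03, and 4 (25%) at an unadjusted p under 0.05 in the set test. Their r with the members' score was highest for Gpr3 (0.799), a receptor that raises cAMP, and Vgf (0.785), a secreted neuropeptide precursor, and lowest for Bdnf (-0.560), a neurotrophin, and Scg2 (-0.518), a granin. Bdnf was 36.2 CPM in A1 and 29.2 in E2, within a range of 27.4 to 49.8 CPM. Upstream regulators of immediate early genes numbered 25, with 0 called in either test and a median log2 fold change of -0.05. Among them r was highest for Mef2c (0.751) and Rps6ka3 (0.684) and was -0.687 for the kinase gene Mapk3, near the lower end of the list. Mef2c, a transcription factor of neurons, was 312 CPM in A1 and 337 in E2, against 93.8 CPM in the lowest mouse.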

How the data were processed

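Hippocampal poly-A RNA was sequenced by the authors as paired-end reads, from libraries of a directional kit. Per the labels and the study's methods, reads were aligned to GRCm38 with STAR 2.7.3a and counted per Ensembl gene with featureCounts, and the authors deposited raw counts without normalization or filter. Columns that belong to no sample numbered 0. Here counts were matched to symbols through the annotation, filtered by filterByExpr (minimum count 10), scaled by TMM and tested with the quasi-likelihood test of edgeR 4.0.16 (robust, R 4.3.3), with Benjamini-Hochberg adjustment over all genes tested and a threshold of 0.05. Standard errors were taken from the size of each log2 fold change and its F statistic. Log2 CPM used a prior count of 2. The library left out was the farthest from the others in a PCA of the 500 most variable genes, since the study left out 1 library by PCA without naming it. DESeq2 1.42.0, limma 3.58.1, other filters and scalings, and leaving out libraries or sets were the alternatives, and leaving out A1 and E2 and the neocortical term were added after the data had been seen. The tests were checked on simulated data, in which mice were drawn independently of each other. Of 50 genes changed 1.3-fold, the MS against SR test called 24, and of 50 changed 2-fold it called 45. The set test called 4 and 33 of such genes, changed in set G. Unchanged genes called numbered 9 in the first test and 6 in the second. The changed genes were drawn at random from all genes tested, whose median SD of log2 CPM within conditions was 0.173. All 10 members lay above that median, up to 0.970 for Egr2, so these rates do not carry over to the members. The members and all lists were chosen with earlier results of these data known. Outside the members, a gene was named for an adjusted p under 0.05, for the 2 highest and 2 lowest r with the members' mean z-score in its list, or for the 8 highest r over all genes. A gene that this rule names in the list of upstream regulators is not reported here. Markers named beside them were chosen after their values were seen.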

Additional observations from a re-analysis of the deposited data

Results flagged for a closer look

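In 8 of 10 members the CPM of the MS mouse A1 lay farther from that of the other 7 MS mice than Dixon's test at 95% allows. The gap to the next mouse over the whole range of the 8 was 0.755 for Fos, 0.595 for Fosb, 0.616 for Junb, 0.874 for Arc, 0.743 for Egr1, 0.774 for Egr2, 0.765 for Npas4 and 0.718 for Nr4a1; each exceeds the critical value for 8 samples. Chance flags about 1 in 20 such groups if the values are normally distributed, which was not checked. The test was not run on log2 CPM, where the gap to a high mouse is smaller. These 8 genes moved together over the mice, so they are not 8 separate observations. Jun (0.333, with A1 lowest) and Fosl2 (0.506, with C1 lowest) stayed under the critical value. The test was not applied to the 12 SR mice.

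The MS library A2, which entered no comparison, lay above all 12 SR libraries in 7 members when all 21 libraries were scaled together. It had 15.0 CPM of Fosb, 87.5 of Junb, 371 of Arc, 330 of Egr1 (329.503), 12.2 of Egr2, 32.9 of Npas4 and 179 of Nr4a1, the highest of the 21 in each. Fos was at 23.8 CPM, within the SR range, Fosl2 at 45.7, and Jun at 46.0 CPM, the lowest of the 21. In the same library the striatal markers summed to 2713 CPM (252 to 1037 in the others), the dentate gyrus markers to 406 (590 to 1014), the CA field markers to 446 (647 to 1045) and the neocortical markers to 550 (306 to 570). Oligodendrocyte markers summed to 9735 CPM (4114 to 8065 in the others), endothelial markers to 464 (259 to 393), microglia markers to 386 (249 to 355) and choroid plexus markers to 14.7 (33.5 to 4636), each outside the range of the others. The part of these sums in the members' levels was not tested.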

How the results depend on the processing

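Called members between MS and SR stayed at 0 in every alternative run, as did members called by number range, and the smallest edgeR, limma or DESeq2 adjusted p of a member was 0.349. The signs of their fold changes were less stable: 52 of 370 values turned. With all 21 libraries the log2 fold change was -0.0324 for Jun, 0.196 for Egr1 and 0.195 for Npas4. Without set A it was -0.108 for Fos, -0.124 for Fosb, -0.0563 for Junb, -0.0917 for Arc, -0.332 for Egr2 and -0.0860 for Nr4a1; without set G -0.0223 for Fosb, -0.0915 for Junb, -0.0850 for Arc and -0.0517 for Nr4a1. For Egr1 and Npas4 it was 0.0280 and 0.0820 without set B, 0.182 and 0.182 without set C (Jun -0.0670), 0.223 and 0.333 without set E, 0.0283 and 0.0751 with number range as a term, 0.0227 and 0.0495 with the neocortical term, 0.0407 and 0.0611 with counts summed per set, and 0.00765 for Npas4 with the set as a random block in limma. Leaving out 1 mouse at a time gave -0.0964 to 0.476 for Fos, -0.0671 to 0.169 for Fosb, -0.0879 to 0.0109 for Fosl2, 0.0233 to 0.141 for Jun, -0.0406 to 0.0848 for Junb, -0.0798 to 0.262 for Arc, -0.293 to 0.120 for Egr1, -0.362 to 0.756 for Egr2, -0.264 to 0.151 for Npas4 and -0.0922 to 0.196 for Nr4a1, with A1 and E2 at the ends for 8 of 10.

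Genes called between MS and SR (2) were 127 in DESeq2, 340 without set C, 1 with all 21 libraries, without the filter or without set G, and 0 without set A, B, D or F, without A1 and E2, or with counts summed per set; leaving out 1 mouse gave 0 (without any of F1, E3, D2, B2, B1, A3 and A1) to 109 (without C2 or C3). Members called between sets (1) were 9 without the filter (5.1% of genes), 8 in DESeq2, and 0 without set B, C, E or G, without A1 and E2, or with the neocortical term; leaving out 1 mouse gave 0 (B1, B3, C1, C2, C3, D2, D3, E2, E3, G2 or G3) to 3 (A3). Genes called between sets (6) were 1992 without the filter, 163 in DESeq2, 2 without set B or C, 1 without set G and 3 with the neocortical term; leaving out 1 mouse gave 2 (G3) to 14 (E3). Where A1 or A3 was left out, the lone mouse of set A was assumed to vary like the other sets. The median r of the 45 pairs (0.787) was 0.680 as rho, 0.848 with all 21 libraries, 0.607 for deviations from set means, 0.819 in MS alone, 0.596 without A1 and E2, 0.533 after the neocortical term, and 0.703 to 0.814 leaving out 1 mouse. The cause of these differences was not tested. No paired analysis was possible because the labels tie no MS mouse to an SR mouse, and the replicate numbers only name the mice. Egr2, with as few as 15 counts, is the member most limited by depth.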

Other observations

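Glucocorticoid-induced genes, a list of 16 of which 15 were tested, had 0 of 15 called between MS and SR and a median log2 fold change of 0.09. Of the 15, 12 were higher in MS, against 9136 of the 18146 genes tested. In the set test 0 of 15 passed, with a smallest edgeR adjusted p of 0.171, for Sgk1, but 10 of 15 (66.7%) had an unadjusted p under 0.05, against 9.09% of all genes. Their median r with the members' score was 0.0454, above 0 in 10 of 15, and the r of their sum was 0.304 (0.465 without A1 and E2). It was highest for the cell cycle inhibitor Cdkn1a (0.823) and for Tsc22d3 (0.641), which encodes GILZ, and lowest for Fkbp5 (-0.387), a co-chaperone of the glucocorticoid receptor, and the kinase gene Sgk1 (-0.160). Sgk1 was 75.9 CPM in A1 and 61.3 in E2, within a range of 43.8 to 116 CPM, so neither mouse stood out.

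The other marker lists, of 10 genes each, had 0 genes called between MS and SR and 0 between sets. Choroid plexus markers, by far the most variable, summed to between 33.5 and 4636 CPM per mouse, with 10 of 10 higher in MS and a median log2 fold change of 0.90 (smallest edgeR adjusted p 0.501). Their r with the members' score was -0.156. The r with that score was 0.496 for the endothelial sum, 0.462 for the astrocyte sum, 0.101 for the oligodendrocyte sum and -0.217 for the microglia sum. The median log2 fold change was 0.41 for striatal, 0.06 for microglia, 0.04 for endothelial, 0.02 for oligodendrocyte, 0.02 for astrocyte, -0.05 for neocortical, -0.06 for dentate gyrus and -0.05 for CA field markers.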
